A study of Mus musculus with 12 samples.

Results

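Sciatic nerve of Gdap1 knockout mice was compared with sciatic nerve of wild type mice on 6 of the 12 arrays of the series, taken by their sample titles: 3 knockout and 3 wild type. The knockout carries a deletion of exon 5 of Gdap1. All animals were untreated and aged 2 months, and the wild type group carries no other allele in the labels. Each array holds RNA of a whole nerve lysate, 20 ng of which was amplified and labelled with biotin. The series text reports RNA of 5 mice and a selection of samples by amount and quality of RNA, while the sources used here give no strain, sex or litter. Levels are on a log2 scale for each probe set, a group of short probes that reads 1 transcript, and 45037 probe sets were compared.

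The product of Gdap1 sits in the outer membrane of mitochondria and takes part in their fission, and mutations in the human gene cause forms of Charcot-Marie-Tooth disease, an inherited neuropathy. A sciatic nerve bundles axons whose cell bodies lie elsewhere. The RNA of a nerve therefore comes largely from Schwann cells, which make myelin, and from fibroblasts, perineurial cells, vessels, resident macrophages and mast cells, with fat, muscle and skin lying close to it. In such a lysate, fewer cells of a type and less RNA per cell cannot be told apart.

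No probe set passed the test between the genotypes at an adjusted p of 0.05 (limma, Benjamini-Hochberg over 45037 probe sets, 0% called). At an unadjusted p under 0.05, 534 probe sets were higher in knockout (1.19%) and 506 were lower (1.12%), together 1040 or 2.31%. That total was 1740 without wild type replicate 2 and 3051 without the arrays high in Xist, described below. Every knockout value lay above every wild type value in 1614 probe sets (3.58%) and below it in 1655 (3.67%). With the replicate number as a block, again none passed, the smallest adjusted p being 0.961 by limma, and 928 were higher (2.06%) and 830 lower (1.84%) at an unadjusted p under 0.05. The 95% interval of the difference lay within a log2 difference of 1 in either direction for 90.8% of probe sets and within 0.5 for 43.8%. The values below are therefore differences that did not pass, given with their spread.

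The 4 probe sets of Gdap1 lie in exons 4 and 6 per the series text, outside the deleted exon, so they do not check the genotype. They read low in nerve. The brightest gave 6.17, 6.19 and 5.43 in wild type replicates 1 to 3 and 6.54, 6.12 and 5.99 in knockout, a difference of 0.29 (SE 0.256, adjusted p = 1 by limma). The others differed by -0.08, -0.05 and 0.09. The paralog Gdap1l1 differed by 0.19 and 0.04 by its probe sets, the first with no overlap between groups.

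Array medians lay between 8.29 and 8.40. Sex-linked transcripts and tissue content set single arrays apart before any comparison of genotypes. By its brightest probe set, Xist, which silences an X chromosome in females, stood at 13.23 on 1 wild type array (replicate 2), at 13.31 on 1 knockout array (replicate 3) and at 6.74 or less on the rest. Eif2s3y of the Y chromosome showed the reverse, 4.71 and 5.39 there against 12.58 or more on the rest. Each genotype thus holds 1 array of the Xist-high kind. The first principal component held 37.5% of the variance and placed wild type replicate 3 at -69.7 and wild type replicate 2 at 46.0, with knockout replicate 2 at 41.9. Wild type replicate 2 also had the largest difference between the probe sets at the 3' and 5' ends of control transcripts, a sign of RNA quality, at 1.17 for beta-actin against 0.69 to 0.86 on the other arrays and 1.03 for Gapdh against 0.73 to 0.88. Its part in the differences below was not tested.

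Most hair keratin transcripts were highest in wild type replicate 3, with lower signal of single genes in wild type replicate 1 and knockout replicate 1. Keratin-associated proteins (Krtap genes) form the matrix of the hair shaft and are made in hair follicles. Of 38 measured Krtap genes, 36 were highest in wild type replicate 3, and 28 read above 10 there and none did on any other array. Their median was 11.13 in wild type replicate 3, 5.45 and 4.47 in wild type replicates 1 and 2, and 5.07, 4.50 and 4.76 in knockout replicates 1 to 3. Krtap15 read 7.63, 3.80 and 13.91 in wild type and 3.51, 3.34 and 4.01 in knockout. Krtap6-3 read 5.10, 5.31 and 11.49 in wild type and 8.82, 4.65 and 4.54 in knockout. Krt25, a keratin of the inner root sheath, read 13.51 in wild type replicate 3, 8.55 in wild type replicate 1 and at most 6.29 on the others. Of 18193 genes, 176 stood at least 1 log2 unit above all other arrays in wild type replicate 3, 59 of them Krt or Krtap genes. These genes were picked after their values were seen.

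**Figure D1:**
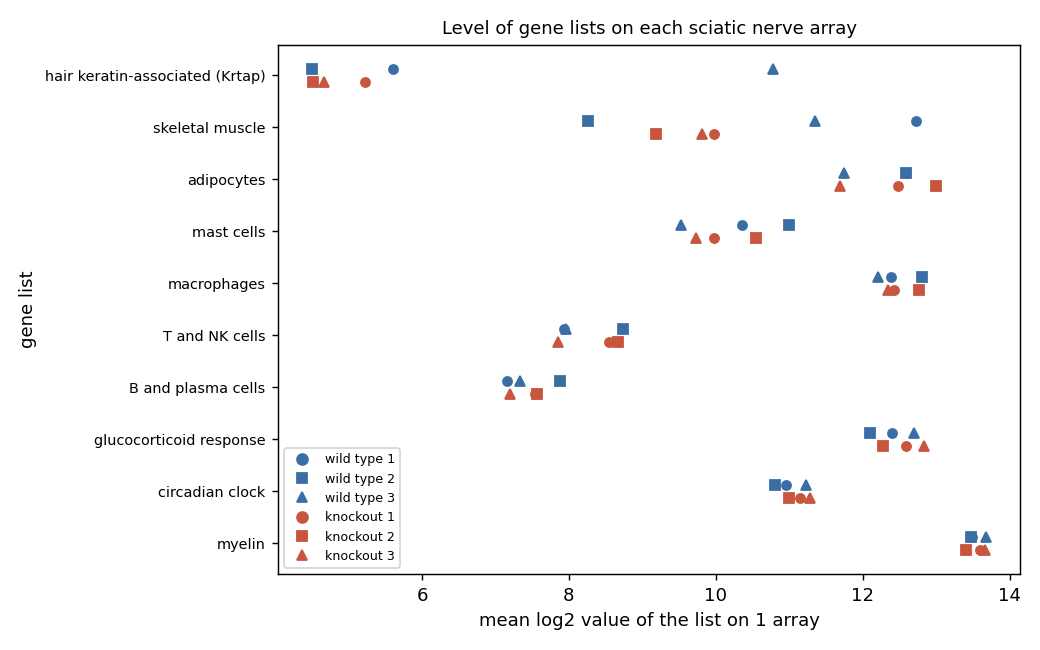
Mean log2 value of each gene list (vertical axis) on each of the 6 sciatic nerve arrays (horizontal axis), with blue for wild type, red for knockout and the shape for the replicate number. The Krtap family stands at 10.78 in wild type replicate 3 and at most 5.60 elsewhere, and skeletal muscle spans 8.26 to 12.72 within wild type.

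Skeletal muscle transcripts were lower in knockout by value but spread more widely within wild type than within knockout. Of 26 measured muscle genes, 25 had a lower knockout mean, beside 50.6% of all 18193 genes, and the median difference was -0.99 beside -0.0019. At an unadjusted p under 0.05, 4 of the 26 were lower, beside 1.33% of all genes, and none passed after adjustment. With the replicate block, 7 of the 26 were lower at that level, beside 2.34% of all genes. Leaving out wild type replicate 2 moved the median to -2.38 and leaving out the Xist-high arrays to -2.56. Without wild type replicate 1, where 25 of the 26 genes were highest, it was -0.06. The mean level of the list itself as a covariate left -0.05, a fit that draws the median towards 0 by construction. The mean of the list was 12.72, 8.26 and 11.35 in wild type replicates 1 to 3 and 9.97, 9.18 and 9.81 in knockout. The lowest array of all was therefore wild type, and the knockout arrays lay between the wild type ones. Myh4, the myosin of the fastest fibres, read 14.63, 5.93 and 12.89 in wild type and 12.07, 10.24 and 11.74 in knockout.

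Myh1, another fast fibre myosin, did not follow Myh4. It read 12.66, 7.92 and 11.50 in wild type and 7.37, 7.19 and 6.95 in knockout, a difference of -3.52 (SE 1.07, unadjusted p = 0.0125, adjusted p = 1 by limma). Its groups did not overlap, a second probe set gave -3.85 and the dimmest -0.68. The antisense transcript Myhas of the same myosin cluster gave 11.79, 7.34 and 10.74 in wild type and 6.70, 6.39 and 6.47 in knockout, a difference of -3.43. Among further muscle genes, the oxygen carrier Mb differed by -2.70 and, by a dim second probe set, by -0.12. Ldb3, a Z disc protein, differed by -1.36, -1.67 and -0.22 by its probe sets. Lbx1, a homeobox factor of migrating muscle precursors, read 9.02, 7.59 and 8.01 in wild type and 6.81, 6.23 and 6.61 in knockout, and its second probe set gave a difference of -0.61. The part that the amount of muscle on each nerve has in these differences was not tested. The fit with the muscle level as a covariate cannot decide it. That level is the mean of the muscle list, which holds Myh1, Mb and Ldb3. No probe set passed in that fit or in the plain one.

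The gene with the smallest p was Vxn, which encodes vexin, a protein first described in neural development. It read 5.62, 5.60 and 5.65 in wild type and 7.39, 8.05 and 7.50 in knockout. The difference was 2.02 (SE 0.201, unadjusted p = 1.59e-05, adjusted p = 0.716 by limma). Wild type values were within 0.05 of one another and at a low level, and all knockout values were higher. Fitted with all 12 arrays, Vxn was the 1 probe set that passed (adjusted p = 0.0192 by limma). The added arrays hold RNA of motoneurons, prepared with a different extraction kit. They enter the estimate of spread and add no nerve value, and the difference stayed at 2.02 (SE 0.209).

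Vxn lies 34 measured genes before Gdap1 on chromosome 1, in RefSeq gene order (GRCm38.p6). Within 50 measured genes of Gdap1, 20 of 228 probe sets had an unadjusted p under 0.05 (8.77%), beside 2.05% on the other chromosomes. From 51 to 200 genes away the share was 2.9%, from 201 to 600 genes 1.5% and beyond that 2.96%. The 20 probe sets belonged to 18 genes, 12 lower and 6 higher in knockout. None passed after adjustment.

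Rrs1, a factor of ribosome assembly 37 genes before Gdap1, was lower by both probe sets. The brighter read 12.58, 12.69 and 12.69 in wild type and 12.15, 12.14 and 12.05 in knockout, a difference of -0.55 (SE 0.0813, unadjusted p = 0.000231, adjusted p = 1 by limma). The other read 10.70, 10.71 and 10.69 in wild type and 10.42, 10.25 and 10.09 in knockout. No array of one genotype reached the other in either. Snhg6, a noncoding host of a small nucleolar RNA, 29 genes before Gdap1, read 12.28, 12.34 and 12.03 against 11.88, 11.61 and 11.60.

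The neighbours at 11, 12 and 13 genes after Gdap1 were lower as well. 6720483E21Rik, an uncharacterised locus, read 7.03, 7.48 and 7.64 in wild type and 6.04, 4.89 and 5.52 in knockout, a difference of -1.90. Paqr8, a membrane progesterone receptor, read 11.28, 11.22 and 11.81 against 10.72, 10.52 and 11.14. Tram2, a translocon-associated protein, read 11.89, 12.22 and 11.96 against 11.72, 11.58 and 11.62. For Tram2 the other probe set differed by 0.18, in the opposite direction, and the other 3 of Paqr8 differed by -0.33, -0.28 and 0.15. Ncoa2, a nuclear receptor coactivator 17 genes before Gdap1, was higher by 0.80 in 1 probe set, while its other 3, among them the brightest, differed by -0.07, -0.15 and -0.03.

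**Figure D2:**
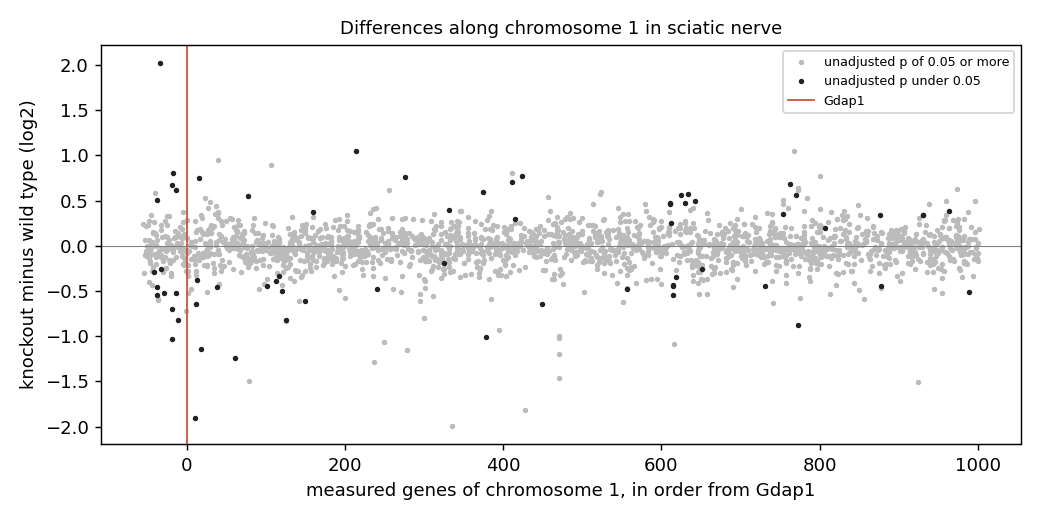
Difference of each probe set of chromosome 1 (vertical axis, knockout minus wild type, log2) by the order of its gene from Gdap1 (horizontal axis), with black points at an unadjusted p under 0.05. Black points make up 8.77% within 50 genes of Gdap1 and 1.5% from 201 to 600 genes away.

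Over all chromosomes, the well-measured genes ranked first by p, 15 in each direction (some of them on chromosome 1), differed by 0.16 to 0.80 where higher and, in size, by 0.19 to 3.52 where lower. Csrp1, a LIM protein of the actin cytoskeleton, read 12.26, 12.28 and 12.42 in wild type and 12.75, 12.73 and 12.87 in knockout (difference 0.47, SE 0.0854, unadjusted p = 0.000818, adjusted p = 1 by limma). Its second probe set was higher by 0.47. Osbpl3, an oxysterol-binding protein, read 9.85, 9.79 and 9.77 against 10.22, 10.19 and 10.26, but its 2 dimmer probe sets differed by -0.07 and -0.03. Csf2ra, a subunit of the receptor of the growth factor GM-CSF, read 8.92, 9.24 and 9.32 against 9.78, 9.72 and 9.67, but by its brighter probe set it differed by 0.05. The gap junction gene Gja1, named from the fit with the replicate block, read 13.95, 13.89 and 14.10 against 13.75, 13.71 and 13.86. Meox2, a homeobox factor of vessels and mesenchyme, read 12.16, 12.17 and 12.02 against 11.83, 11.85 and 11.85, and Fgl2, a fibrinogen-like protein, 13.11, 13.14 and 13.19 against 12.90, 12.79 and 13.02. By the values listed for these genes, the groups did not overlap, which their choice by p favours and which adds no support. Of the 11 higher genes with several probe sets, 5 had the same sign in all, and of the 10 lower ones 8 did.

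**Figure D3:**
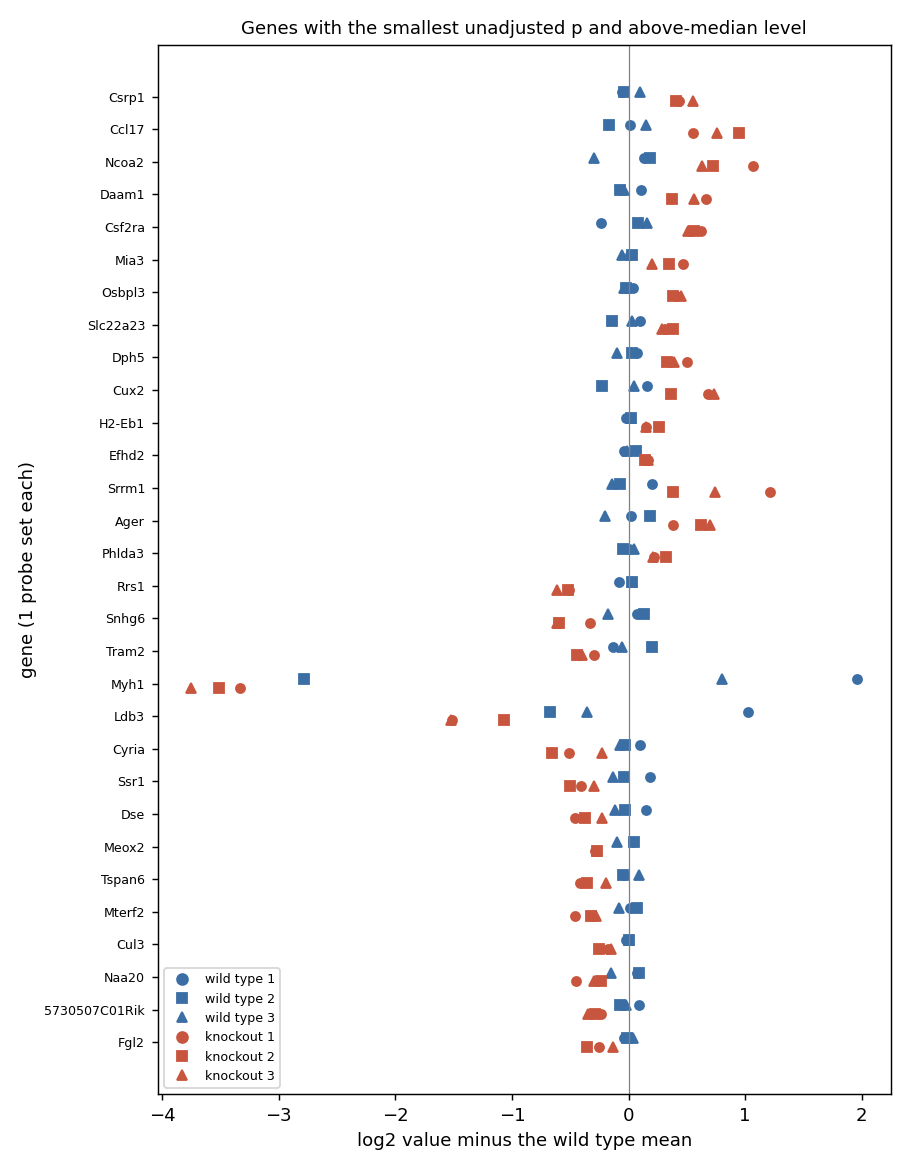
Value of each array minus the wild type mean (horizontal axis, log2) for the genes ranked first by unadjusted p, 15 per direction (vertical axis), blue for wild type and red for knockout. The groups do not overlap in any of them by these probe sets, which the choice by p favours. Over all probe sets, 3.58% were higher and 3.67% lower with no overlap. Wild type spreads widest in Myh1, from 7.92 to 12.66.

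Differences of myelin genes between the genotypes were small and mostly had narrow intervals. Of 19 measured, 11 had a higher and 8 a lower knockout mean, with a median of 0.007, and none had an unadjusted p under 0.05. With the replicate block, 2 were higher at that level, Egr2 and Gjb1, beside 1.86% of all genes. Mbp, the basic protein of compact myelin, read 15.31, 15.31 and 15.37 in wild type and 15.35, 15.31 and 15.35 in knockout (difference 0.01, 95% interval -0.073 to 0.092). Pmp22, whose dosage underlies the most frequent Charcot-Marie-Tooth disease, differed by -0.03 (95% interval -0.110 to 0.054). Egr2, the transcription factor that drives myelination, differed by 0.15 (95% interval -0.155 to 0.460). The interval lay within 0.5 for 16 of the 19. Schwann cell markers were high on every array, so the labelled tissue held them throughout.

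For 27 genes of mitochondrial fission and fusion the median difference was 0.026, with none at an unadjusted p under 0.05 and 21 intervals within 0.5. With the replicate block, 2 of the 27 were higher at that level, beside 1.86% of all genes. Fis1, the fission adaptor that shares the outer membrane with Gdap1, differed by 0.03 (95% interval -0.074 to 0.137) and Mff, a receptor of the fission dynamin, by -0.03 (95% interval -0.150 to 0.082). For 72 respiratory chain genes the median was -0.015 and 70 intervals lay within 0.5. For 29 genes of redox defence it was 0.002, and for 42 genes of Charcot-Marie-Tooth disease 0.031. In the blocked fit, 3 of the 42 were higher at an unadjusted p under 0.05, beside 1.86% of all genes, and none in the plain one. Slc7a11, a cystine importer, was the 1 of 29 redox genes with an unadjusted p under 0.05 in the plain fit, beside 1.33% of all genes that were lower at that level. It read 5.10, 4.08 and 5.04 in wild type and 3.50, 3.64 and 4.16 in knockout, a low level at which the groups overlapped.

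**Figure D4:**
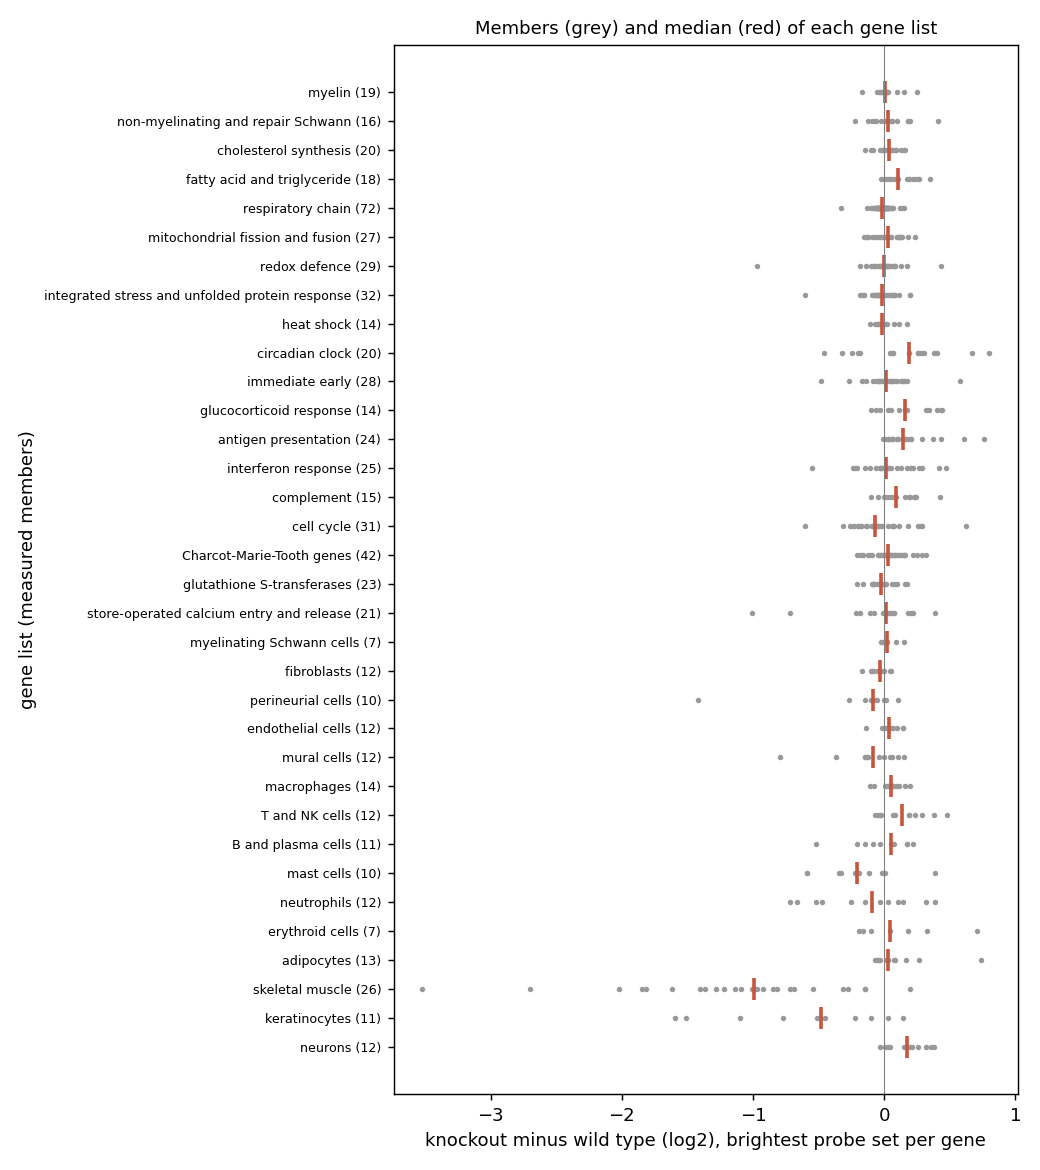
Difference of each measured member (grey points) and the median (red bars) of 34 gene lists (vertical axis, measured members in brackets) between knockout and wild type (horizontal axis, log2). The medians farthest from 0 are skeletal muscle at -0.99, keratinocytes at -0.48, mast cells at -0.21 and circadian clock at 0.19. The keratinocyte list averages 9.15 in wild type replicate 3 and at most 7.93 on the other arrays.

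Antigen presentation genes leaned higher in knockout by small amounts. Of 24 measured, 23 had a higher knockout mean, with a median of 0.142, beside 49.4% of all genes. H2-Eb1, a chain of MHC class II, read 13.91, 13.95 and 13.95 in wild type and 14.08, 14.19 and 14.08 in knockout (difference 0.18, SE 0.0538, unadjusted p = 0.0114, adjusted p = 1 by limma). Ccl17, a chemokine of dendritic cells, read 8.75, 8.57 and 8.89 against 9.29, 9.69 and 9.50. These were the 2 of 24 members at an unadjusted p under 0.05, beside 0.704% of all genes that were higher at that level. With the replicate block, 4 of the 24 were higher at that level, beside 1.86% of all genes. The mean of the list was 10.84, 11.09 and 10.77 in wild type replicates 1 to 3 and 11.12, 11.33 and 10.79 in knockout, so the groups overlapped and knockout replicate 3 lay below 2 of the wild type arrays. At replicate number 3, 13 of the 24 genes were higher in knockout, and 11 were higher at all 3 numbers. The median of the list was 0.04 without knockout replicate 2, 0.05 with the muscle level as a covariate and 0.38 without the Xist-high arrays. The macrophage list differed by 0.050 and the T and NK cell list by 0.135 in the median. No member of either had an unadjusted p under 0.05 in the plain fit. In the blocked fit, 1 of 12 in the T and NK list was higher, beside 1.86% of all genes. The part of cell numbers in this was not tested.

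Most circadian clock genes had a higher knockout mean and some, Arntl among them, a lower one, and none passed after adjustment. In the clock, the factor encoded by Arntl drives the Per and Cry genes, Ciart, Dbp and Nr1d1 from E boxes, and Nr1d1 in turn represses Arntl. D boxes are bound by Dbp, Tef and Hlf. Of 20 measured genes, 15 had a higher knockout mean, beside 49.4% of all genes, and 5 a lower one, with a median of 0.186. Leaving out wild type replicate 2 moved the median to 0.09 and leaving out the Xist-high arrays to 0.015. Only Nr1d1 had an unadjusted p under 0.05, beside 0.704% of all genes that were higher at that level. With the replicate block 7 genes were higher and 1 lower, beside 1.86% and 2.34% of all genes. 2 promoters of the list are shown for the elements they hold, from RefSeq (GRCm38.p6), with E boxes (CACGTG) and D boxes (TTATGTAA, or TTACATAA on the other strand) in capitals.
Ciart promoter, chr3:95882179-95882478, minus strand: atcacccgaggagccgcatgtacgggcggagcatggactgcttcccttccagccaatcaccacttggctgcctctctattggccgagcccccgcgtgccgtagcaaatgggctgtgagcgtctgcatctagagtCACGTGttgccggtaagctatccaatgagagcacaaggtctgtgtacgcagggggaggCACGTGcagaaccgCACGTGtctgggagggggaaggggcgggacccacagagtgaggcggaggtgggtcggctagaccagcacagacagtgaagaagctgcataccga
Per3 promoter, chr4:151044616-151044915, minus strand: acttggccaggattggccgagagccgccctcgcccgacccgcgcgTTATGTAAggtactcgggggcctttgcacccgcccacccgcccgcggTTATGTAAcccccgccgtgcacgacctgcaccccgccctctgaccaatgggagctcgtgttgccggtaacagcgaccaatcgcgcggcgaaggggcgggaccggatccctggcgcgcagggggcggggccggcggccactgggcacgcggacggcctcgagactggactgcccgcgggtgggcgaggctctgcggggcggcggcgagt
The Ciart window holds 3 E boxes and no D box, and the Per3 window 2 D boxes and no E box. Of 32851 windows of this length, 7.15% hold an E box and 0.938% a D box. Of 25 windows of 17 clock genes, 6 hold an E box and 1 a D box, and those of Dbp, Nr1d1 and Cry2 hold neither. A match describes letters and not binding.

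Ciart, a repressor of the clock, read 8.87, 8.23 and 10.03 in wild type and 9.74, 9.33 and 10.07 in knockout, a difference of 0.67 (SE 0.44, adjusted p = 1 by limma). Per3, a period gene, read 12.32, 11.88 and 12.72 against 12.71, 12.29 and 12.77. Nr1d1 read 12.19, 12.14 and 12.34 against 12.51, 12.53 and 12.40 (difference 0.26, unadjusted p = 0.0258). Arntl went the other way by value, at 10.23, 10.31 and 9.78 against 9.46, 9.99 and 9.49 (difference -0.46, unadjusted p = 0.0664). Ciart and Per3 were lowest in replicate 2 and highest in replicate 3 of both genotypes, and their groups overlapped. Replicate 2 was the lowest of its group in both genotypes for 10 of the 20 genes, and replicate 3 the highest in both for 11. This order was not particular to the clock. Of 19 myelin genes, replicate 2 was lowest in both for 10 and replicate 3 highest in both for 18. Of 14 macrophage genes, the counts were 0 and 0. The hour of killing is not given in the sources used here.

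**Figure D5:**
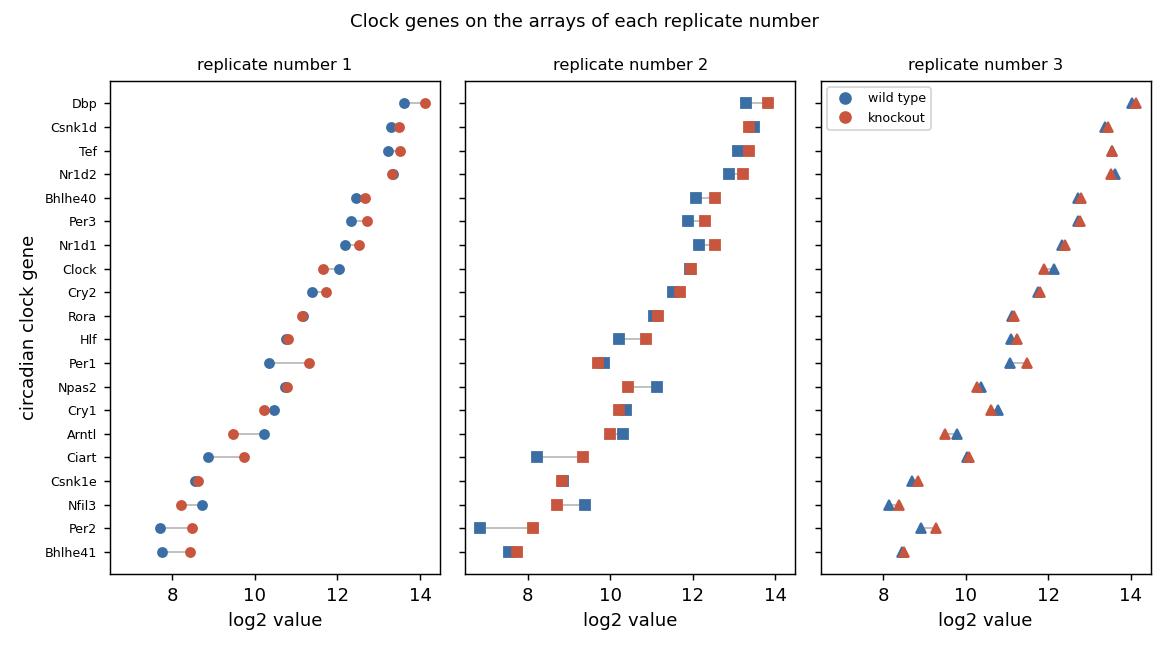
Log2 value (horizontal axis) of 20 circadian clock genes (vertical axis) in wild type (blue) and knockout (red), 1 panel for each replicate number. Knockout lies above wild type for 14, 13 and 15 of the 20 genes in the panels, and the gaps are small in replicate 3.

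Several genes followed the replicate number more closely than the genotype. Tsc22d3, a glucocorticoid-induced leucine zipper protein, read 11.15, 9.70 and 12.01 in wild type replicates 1 to 3 and 11.26, 9.83 and 12.10 in knockout. Sgk1, a kinase induced by glucocorticoids, read 13.74, 13.03 and 14.16 against 14.00, 13.10 and 14.30. The fat cell genes Plin4, a lipid droplet protein, at 12.25, 13.30 and 11.44 against 12.34, 13.34 and 11.39, and Lep, the hormone leptin, at 11.14, 12.22 and 10.24 against 11.28, 12.06 and 10.15, ran in the opposite order. No probe set passed a test of the replicate number (smallest adjusted p = 0.0615 by limma). Of 45037 probe sets, 6934 had an unadjusted p under 0.05 for the replicate number, beside 1758 for the genotype in the same blocked fit. The adipocyte list averaged 12.58, 12.59 and 11.74 in wild type and 12.48, 13.00 and 11.69 in knockout, and mast cell genes 10.35, 10.99 and 9.53 against 9.98, 10.55 and 9.73.

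With the replicate block, genes of this kind came forward without passing. Mt2, a metallothionein, read 13.36, 12.87 and 13.86 in wild type and 13.90, 13.35 and 14.12 in knockout, overlapping groups with a higher knockout value at each number (difference 0.43, blocked unadjusted p = 0.000674, adjusted p = 0.961 by limma). Nfkbia, the inhibitor of NF-kappa-B, read 12.11, 11.30 and 12.16 against 12.58, 11.95 and 12.49 by its dimmest probe set, a difference of 0.484. Its brighter probe sets differed by 0.141, 0.109, 0.415 and 0.161. Adhfe1, a mitochondrial alcohol dehydrogenase and the next measured gene after Rrs1, read 11.77, 12.27 and 10.79 against 11.25, 11.65 and 10.15. Cox8b, a respiratory chain subunit of muscle and brown fat, read 12.84, 12.71 and 11.63 against 12.29, 12.34 and 11.15.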

How the data were processed

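RNA of 6 sciatic nerve arrays was compared. The authors deposited log2 expression values per probe set, and the submitters' processing notes name Affymetrix Expression Console 1.1. How probes were summarized is not given in the sources used here, and the scale was inferred from the range of values. Arrays have no read depth, and 3 per group limit the precision. The labels call them biological replicates.

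The 64 control probe sets among 45101 were not tested. Annotation gave 34945 of the rest 1 symbol, 932 several and 9160 none, updated through RefSeq (GRCm38.p6). Lists used the brightest probe set of each of 18193 genes. Differences, knockout minus wild type, came from limma 3.58.1 (R 4.3.3, eBayes with a mean trend), two-sided, Benjamini-Hochberg over all probe sets, and checked on simulated data. The members and lists were chosen with earlier results of these data known. Named genes were, by rule, Gdap1 and its paralog, the 15 genes per direction with the smallest p and an above-median level, 10 per direction with the replicate block, 10 by size of difference, the 12 most variable, and up to 4 members of each list. A choice from these is described. Krtap genes, the replicate number test and neighbours of Gdap1 were chosen after values were seen. Figures used matplotlib 3.10.9.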

Additional observations from a re-analysis of the deposited data

Results flagged for a closer look

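The hybridization controls, bacterial transcripts added to the sample before hybridization and left out of the comparison, read lower on all knockout arrays. Their mean over 18 probe sets was 13.28, 13.13 and 13.17 in wild type and 12.64, 12.73 and 12.63 in knockout, a difference of -0.52. An exact two-sided permutation test gave p = 0.1, the smallest that 3 against 3 arrays allow. In 17 of the 18 the knockout values lay wholly below, beside 3.67% of the probe sets compared. Several of the 18 read the same bacterial transcript, so they are not separate observations. The labelling controls differed by -0.06 in the median of 12 probe sets, which are only a part of the labelling control probe sets. These 12 averaged only 4.29 to 4.46 on the arrays, a level too low to show whether labelling was even. The part of this in the gene values was not tested. Groups of 3 arrays are too small for an outlier test.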

How the results depend on the processing

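The count of probe sets passing stayed at 0 under every setting except the fit of all 12 arrays, which gave 1. Leaving out each array in turn gave 0 to 0 passing and 712 to 1740 probe sets with an unadjusted p under 0.05, against 1040. The 1740 came without wild type replicate 2. That number was 1758 with the replicate block, 223 among above-median probe sets, where fewer were tested by construction, and 3051 without the Xist-high arrays. The cause was not tested. A fit with the Krtap level as a covariate, added after seeing the data, gave 0 passing. In the paired check, deviations of same-numbered arrays correlated at 0.026, 0.305 and 0.216, and 5 of 6 arrays correlated best with their own number. The labels state no pairing, so the main fit did not take the numbers to pair the animals. Whether the numbers mark a shared day or litter was not tested.

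Of 34 list medians, 5 kept their sign under all settings. These were skeletal muscle (-2.56 to -0.05), keratinocytes (-0.82 to -0.005), neurons (0.04 to 0.28), antigen presentation (0.04 to 0.38) and circadian clock (0.02 to 0.30). The keratinocyte list averaged 9.15 in wild type replicate 3, the array high in hair keratins, and at most 7.93 on the others. Gdap1 reversed by 1 probe set to 0.015 with the muscle level as a covariate and, with each array left out, ranged from -0.420 to 0.253, and another ranged from -0.024 to 0.234. Gdap1l1 reversed to -0.002 with arrays centred on medians.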

Other observations

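Other arrays also held transcripts of their own. Gbp2b, an interferon-induced GTPase, read 10.79 in wild type replicate 2 and at most 7.41 on the others, and Igha, the heavy chain of IgA, read 11.48 there and 9.93 in knockout replicate 2. Igk, the kappa light chain, spanned 6.99 in knockout replicate 3 to 12.35 in wild type replicate 2. Knockout replicate 1 alone read above 5 for Zic1, a neural transcription factor, at 5.09, and reached 6.65 for Gad2, an enzyme of GABA synthesis, against at most 5.23. Knockout replicate 2 read highest for Ifng, at 6.76, and for the NK cell receptor gene Klra8, at 8.42.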
